A study of Danio rerio with 12 samples.

Results

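Small RNA was sequenced from sorted zebrafish cells at 48 hpf (hours post fertilization), when the embryo's main vessels carry blood and new vessels are still forming. The comparison rests on 4 of the 12 libraries of the series, chosen by their titles: 2 named Endo and 2 named NoEndo. Per the labels' protocols, embryos were raised at 28 °C, transgenic fish were dissociated with Liberase, and GFP-positive cells were collected by FACS. The labels name no promoter for the GFP, no fish line beyond transgenic, and no number of embryos. The NoEndo libraries carry the same endothelial source and GFP stain labels as the Endo libraries, so only the titles tell the groups apart. The sources used here do not say which cells the NoEndo sort held. Separate clutches are not stated for the replicates, and the p-values therefore reflect the spread among these libraries alone, which may be technical.

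MicroRNAs are short RNAs that pair with messenger RNAs and lower their translation and stability. Each hairpin precursor yields a 5p and a 3p arm, of which 1 is usually loaded in excess, and neighbouring hairpins are often transcribed together. Many microRNAs mark a cell type: miR-126 lies in an intron of an endothelial gene and maintains vessel integrity in zebrafish, the miR-200 family and miR-205 mark epithelia, miR-203 marks skin, and miR-9 and miR-124 mark neural progenitors and neurons. A sorted population can therefore be described by which of these groups fill its library. A library gives shares, so fewer cells of a type and less of a microRNA per cell cannot be told apart.

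Reads on mature microRNAs numbered 1068864 and 743938 in Endo replicates 1 and 2, and 657337 and 2311070 in NoEndo replicates 1 and 2. They made up 16.3% and 7.75% of a larger library total in Endo, and 28.1% and 23.8% in NoEndo. The libraries listed between 283 and 322 microRNAs, the most in the deepest one. A level of 0 allows up to 3 counts, which is 2.81, 4.04, 4.605 and 1.30 CPM (counts scaled to a common library size) in the same order of libraries, and covers counting error only. Across the 261 microRNAs tested, the correlation of log CPM was 0.952 between the Endo replicates, 0.942 between the NoEndo replicates and 0.818 to 0.860 between populations. This describes microRNAs that share a library, and microRNAs are not independent replicates.

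The Endo libraries were led by miR-92a-3p, miR-222a-3p, miR-125b-5p and miR-221-3p. miR-92a-3p, of the miR-17-92 family, held 13.5% and 13.2% of counts in Endo replicates 1 and 2, and 9.38% and 14.2% in NoEndo replicates 1 and 2, so the populations overlapped. Shares below follow the same order of libraries. miR-222a-3p held 10.7%, 7.52%, 4.13% and 2.67%, and miR-221-3p, which regulates endothelial tip cells in zebrafish, held 5.84%, 6.16%, 3.32% and 2.13%. Both were above NoEndo in both Endo libraries. Next came miR-126a-3p, miR-23b, miR-23a-3p and miR-150, and the levels of the first and last in NoEndo were far below those in Endo. miR-126a-3p held 3.45%, 6.43%, 0.0407% and 0.0414%. miR-150 held 4.57%, 2.997%, 0.033% and 0.0267%, and miR-23b held 4.91%, 3.73%, 1.42% and 1.35%. miR-126a-3p ranked 10th and 3rd in the Endo libraries and 105th and 127th in the NoEndo libraries. miR-150 ranked 6th and 8th against 116th and 146th. The other microRNAs among the 10 most abundant of Endo were miR-125a and miR-30c-5p. miR-125b-5p differed little between libraries, at 6.95%, 6.13%, 6.01% and 6.17%.

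The NoEndo libraries shared miR-92a-3p, miR-125b-5p, miR-222a-3p, miR-221-3p and miR-30c-5p with the 10 most abundant of Endo, and otherwise differed. miR-205-5p, a microRNA of stratified epithelia, was the most abundant microRNA of NoEndo replicate 1 and the third of NoEndo replicate 2, with 14.6% and 4.99% of counts, against 0.92% and 0.622% in Endo. miR-203b-3p, of the skin, held 7.28% and 1.24% in NoEndo and 0.367% and 0.229% in Endo. Every NoEndo library was above every Endo library for both, although the NoEndo replicates differed several fold between themselves. miR-9-5p, of neural progenitors, held 1.999% and 3.94% in NoEndo and 0.261% and 0.74% in Endo. miR-204-5p, of the eye, held 4.07% and 3.94% in NoEndo and 2.27% and 1.33% in Endo. miR-430b-3p, whose family removes maternal transcripts in the early zebrafish embryo, was alike in all libraries, with 2.22%, 2.64%, 2.55% and 2.50%. The 10 most abundant microRNAs together held 62.0% and 55.3% of counts in Endo and 57.4% and 46.1% in NoEndo.

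**Figure D1:**
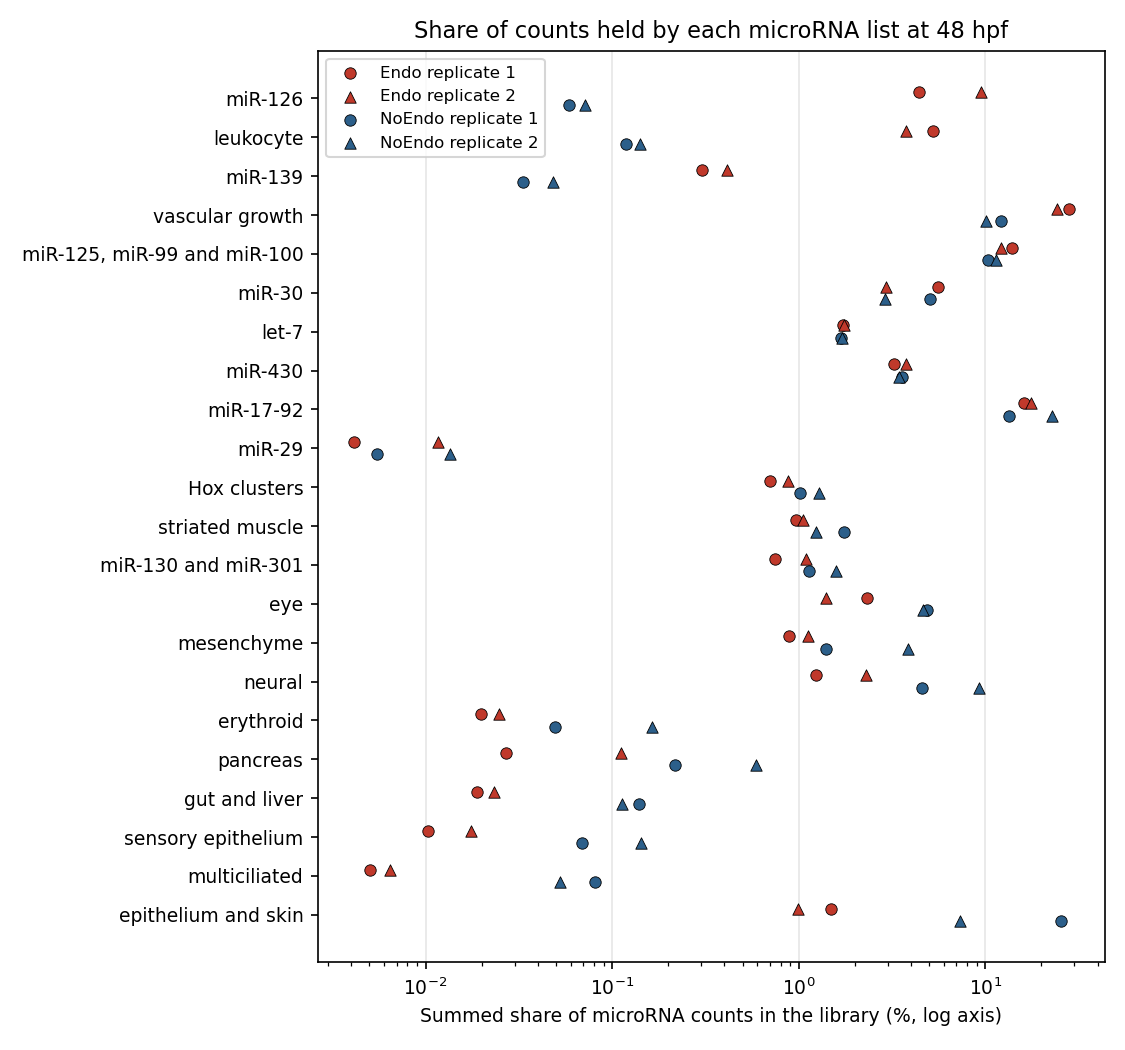
Summed share of microRNA counts held by 22 microRNA lists in each 48 hpf library (percent, log axis), with 1 point per library. The miR-126 list held 4.39% and 9.42% in Endo and under 0.1% in NoEndo, while the list of epithelium and skin held 1.48% and 0.988% in Endo and 25.5% and 7.30% in NoEndo.

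A level of 10 CPM or more was reached by 261 microRNAs in at least 2 of the 4 libraries. Of these, 31 passed at an adjusted p under 0.05 (11.9%; edgeR's quasi-likelihood test with Benjamini-Hochberg adjustment), 10 higher in Endo (3.83%) and 21 lower (8.05%). These are the microRNAs referred to as called. The differences are on the log2 scale of counts scaled by TMM factors, and their median over all 261 was -0.27. With DESeq2 size factors this median moved up by 0.26 and with total counts it fell by 0.39, so differences near 0 have no firm direction. As a description of what both replicates share, a microRNA is written as separated where the lower library of 1 population lay at least 2-fold above the higher library of the other, after 1 CPM was added to each level. By that measure 73 of 261 (28%) were separated, 19 higher in Endo (7.28%) and 54 lower (20.7%), and they include all 31 called. With no minimum gap, 158 of 261 (60.5%) did not overlap, 62 higher (23.8%) and 96 lower (36.8%). For a single microRNA, 2 libraries against 2 cannot reach an exact two-sided permutation p below 0.333.

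The number of calls rests on few libraries. Without Endo replicate 1 it was 9, all higher in Endo and all among the 31, and without Endo replicate 2 it was 0, with 58 at an unadjusted p under 0.05 and 92 with all 4 libraries. None of the 21 calls lower in Endo passed without either Endo library. In the fit without Endo replicate 2 the lowest adjusted p was 0.0592, for miR-126a-3p, miR-126b-3p and miR-150. Without NoEndo replicate 1 it was 28, of which 17 are among the 31, and without NoEndo replicate 2 it was 39, of which 25 are. A population left with 1 library is assumed to vary like the other. None of the 31 changed sign in the fits that tested it. All 31 were separated, so leaving out 1 library could hardly turn a sign. miR-34b, miR-183-5p and miR-204-3p were not tested in the fits without NoEndo replicate 1 or without NoEndo replicate 2. The number of calls also depends on the replicate number, which the main fit leaves out. Deviations of same-numbered libraries from their population means correlated at 0.70. With the replicate number as a term in the fit (the replicate block), 140 of 261 passed, including all 31. A missed threshold in the main test is therefore a miss without this term.

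**Figure D2:**
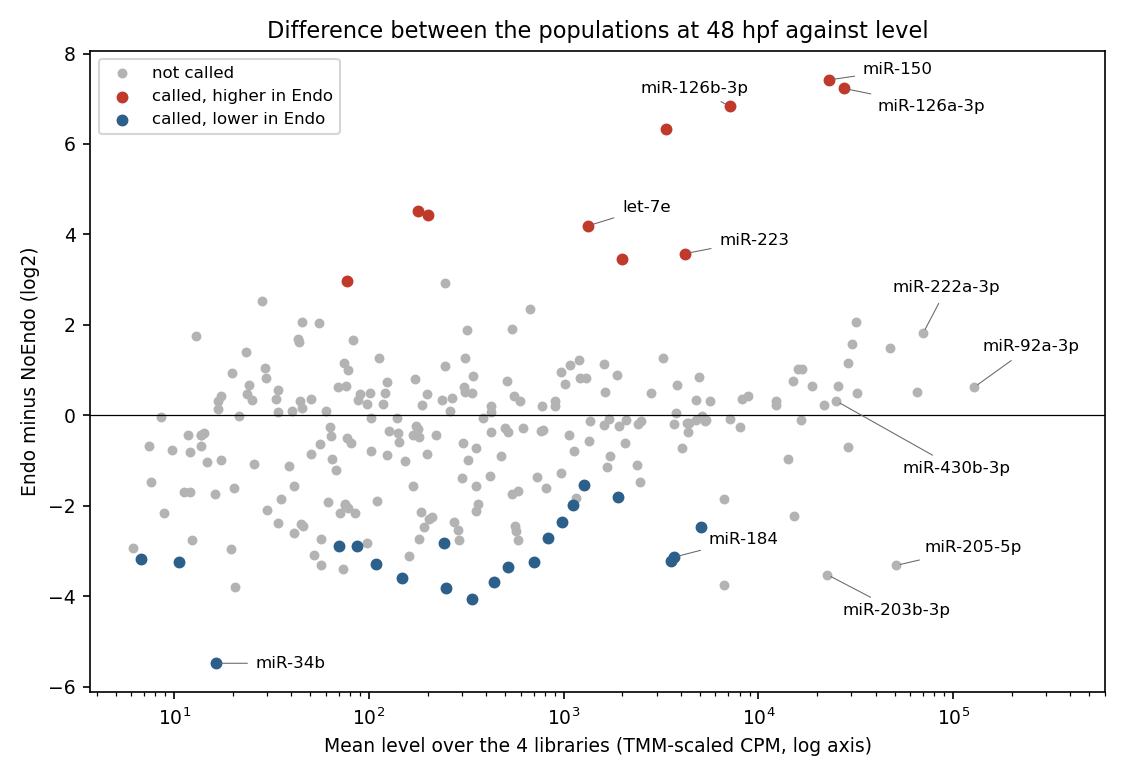
Difference between Endo and NoEndo (log2) against the mean level of each of the 261 tested microRNAs over the 4 libraries (TMM-scaled CPM, log axis), with the 10 called higher in red, the 21 called lower in blue and the others in grey. miR-150 and miR-126a-3p combine a large difference with a high level, while the abundant miR-205-5p and miR-203b-3p lie far below 0 without passing the test.

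The endothelial miR-126 family was higher in Endo in all 3 of its measured forms. miR-126a-3p stood at 47213 and 61471 CPM in the Endo libraries and at 412 and 313 CPM in the NoEndo libraries (levels here and below are TMM-scaled CPM). Its lowest Endo library was 114-fold above its highest NoEndo library. The fitted difference was 7.23 (SE 0.55, adjusted p = 0.00602, edgeR), or 150.2-fold. miR-126b-3p stood at 9664 and 18503 CPM against 124 and 122 CPM, a difference of 6.84 (SE 0.57). The 5p arm, listed as 1 joint entry for both hairpins, stood at 3229 and 10071 CPM against 59.0 and 105 CPM (6.32, SE 0.80). In every form both Endo libraries lay far above both NoEndo libraries, and Endo replicate 2 was above Endo replicate 1. All 3 were called in each fit that left out Endo replicate 1, NoEndo replicate 1 or NoEndo replicate 2, and none without Endo replicate 2.

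miR-139 followed, with a call for each of its arms. miR-139-5p stood at 3550 and 3769 CPM in Endo and 318 and 348 CPM in NoEndo, so each population was tight and the gap between them was 10.2-fold (log2 3.46, SE 0.35, adjusted p = 0.0069, edgeR). The minor arm miR-139-3p stood at 585 and 184 CPM against 20.2 and 15.7 CPM (4.43, SE 0.80, adjusted p = 0.035), with Endo replicate 1 above Endo replicate 2. Both arms were called in 3 of the 4 fits that left out a library, the exception being the fit without Endo replicate 2.

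The microRNAs with the largest excess in Endo lie apart in the genome. In Zv9, miR-126a-3p lies on chromosome 8 at 12065968-12065988 (minus strand) and miR-126b-3p on chromosome 11 at 38496011-38496032 (plus strand). miR-139-5p lies on chromosome 15 at 47153835-47153852 with miR-139-3p at 47153872-47153894 (plus strand), miR-150 on chromosome 3 at 32708295-32708316 (plus strand), and miR-223 on chromosome 5 at 24017743-24017763 (minus strand). In the RefSeq gene table of another assembly, GRCz12tu, which was used for names only, miR-126b sits inside egfl7, an endothelial gene, and miR-139 inside pde2a, which encodes a phosphodiesterase. The span of bcl2l12 holds the miR-150 hairpin. Exons and introns of Zv9 are not analysed here.

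The leukocyte microRNAs miR-150 and miR-223, were also called higher in Endo. miR-150, known from lymphocytes in mouse, stood at 62568 and 28638 CPM in Endo and 334 and 202 CPM in NoEndo, a difference of 7.42 (SE 0.74, adjusted p = 0.0069, edgeR). miR-223, known from myeloid cells, stood at 8766 and 6723 CPM against 721 and 580 CPM (3.57, SE 0.39, adjusted p = 0.00816). For both, every Endo library lay at least 9.32-fold above every NoEndo library. Of the 6 tested members of the leukocyte list, 2 were called higher (33.3%, beside 3.83% of all 261) and 0 lower. All 6 differences were positive, with a median of 1.47 against -0.27 over all 261. The other members were far scarcer. miR-142a-3p, found in all blood cell lineages, had 37 and 161 counts in Endo and 5 and 213 in NoEndo (47.5, 207, 7.77 and 69.9 CPM), and its populations overlapped. miR-146b stood at 154 and 163 CPM against 63.7 and 66.9 CPM and was separated without passing the test (1.28, SE 0.50, adjusted p = 0.135). miR-155 stood at 88.5 and 79.7 CPM against 40.4 and 68.2 CPM (0.62, adjusted p = 0.50). Apart from miR-150 and miR-223, the list held 0.0261% and 0.0627% of counts in Endo and 0.0138% and 0.0371% in NoEndo. Without Endo replicate 2 neither call passed. The median of the list was 0.94 in that fit and 2.65 without NoEndo replicate 2.

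The red cell microRNAs showed no excess in Endo. miR-451, which red cells need to mature in zebrafish, stood at 268 and 234 CPM in Endo and 491 and 1188 CPM in NoEndo, below both NoEndo libraries in both Endo libraries (-1.74, SE 0.57, adjusted p = 0.102, edgeR). miR-144-3p had 0 counts in both Endo libraries and in NoEndo replicate 1, and 41 counts in NoEndo replicate 2. The part that leukocytes or red cells in the Endo sort have in the differences above was not tested.

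MicroRNAs of the miR-221, miR-222, miR-23, miR-24 and miR-27 families, which are linked to vessel growth and are often transcribed from shared clusters, filled more of the Endo libraries. With miR-21, miR-132, miR-212 and miR-210 they form a list that held 28.1% and 24.3% of counts in Endo and 12.1% and 10.05% in NoEndo. Of its 20 tested members, 1 was called higher, beside 3.83% of all 261, and 0 lower. 18 differences were positive (17 with total counts), and the median was 1.26. With a 100 CPM filter 4 were called higher and 1 lower of 15 tested, where 53 of 182 passed, 15 of them higher. With the DESeq2 Wald test 8 of 20 were called higher, where 65 of all 261 passed, 21 of them higher. With the replicate block 16 were called higher and 1 lower, where 140 of all 261 passed. The call was miR-222b, at 331 and 349 CPM in Endo and 20.2 and 10.5 CPM in NoEndo (4.52, SE 0.63, adjusted p = 0.0186, edgeR), a far larger difference than that of its more abundant relatives. The call was lost without Endo replicate 2 (adjusted p = 0.143). miR-222a-3p (1.82, SE 0.63, adjusted p = 0.113) and miR-221-3p (1.48, SE 0.55, adjusted p = 0.122) had non-overlapping libraries but did not pass.

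miR-23b was the most abundant separated member without a call, at 67293 and 35602 CPM in Endo and 14397 and 10190 CPM in NoEndo (2.07, SE 0.52, adjusted p = 0.062, edgeR). miR-24, which shares clusters with miR-23 and miR-27, was separated too, at 4352 and 4817 CPM against 1797 and 2034 CPM (1.26, SE 0.33, adjusted p = 0.0621). The miR-27 members differed in sign: miR-27b-3p stood at 1160 and 1402 CPM against 641 and 670 CPM, while miR-27e stood at 25.7 and 34.7 CPM against 154 and 85.6 CPM and was the 1 separated member that was lower in Endo (-1.98, SE 0.59, adjusted p = 0.0825). miR-21 stood at 21504 and 21166 CPM in Endo and 9658 and 11182 CPM in NoEndo (1.03, SE 0.38, adjusted p = 0.119). miR-210-3p, which hypoxia induces, overlapped between populations.

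The remaining calls higher in Endo were let-7e and miR-187. let-7e, of the let-7 family that times development in worms, stood at 2660 and 2379 CPM in Endo and 162 and 116 CPM in NoEndo (4.19, SE 0.40, adjusted p = 0.0069, edgeR), and did not pass without Endo replicate 2 (0.0869). It differed from its own family: the other 8 tested let-7 members ran from -1.04 to 0.81 and were not called, and the list as a whole held 1.73%, 1.74%, 1.67% and 1.71% of counts. The family's median of 0.21 turned to -0.17 with total counts. Reads of such similar sequences may be split between members. miR-187 stood at 153 and 121 CPM against 15.5 and 19.0 CPM (2.96, SE 0.55, adjusted p = 0.035), and its call was lost in each of the 4 fits that left out a library, with an adjusted p from 0.0643 to 0.143, and with total counts (0.0515). Separated without a call were miR-735-5p, at 983 and 729 CPM against 264 and 193 CPM (1.91, SE 0.45, adjusted p = 0.0566), and miR-338, at 214 and 655 CPM against 17.1 and 94.5 CPM (2.92, SE 1.02, adjusted p = 0.113).

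**Figure D3:**
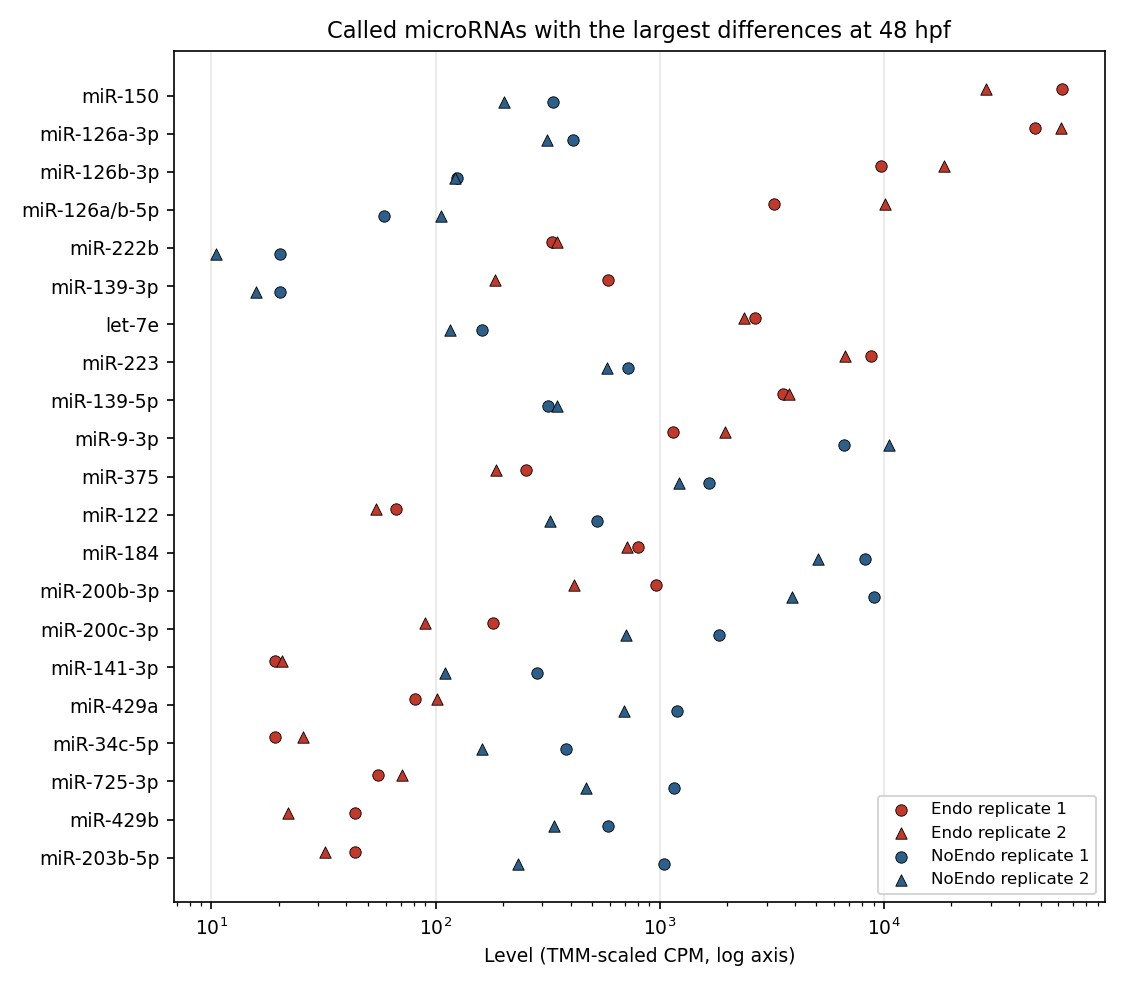
Level in each 48 hpf library (TMM-scaled CPM, log axis) of the called microRNAs with the largest differences and a mean of at least 100 CPM, with circles for replicate 1 and triangles for replicate 2. For each of the 21 microRNAs the 2 red Endo points lie on 1 side of the 2 blue NoEndo points, from miR-150 at 62568 and 28638 against 334 and 202 CPM to miR-203b-5p at 43.6 and 32.2 against 1042 and 233 CPM.

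The list of epithelium and skin held the most edgeR calls lower in Endo. Of the 12 tested members of that list, 7 were called lower (58.3%, beside 8.05% of all 261) and 0 higher, and 9 were separated (beside 20.7%). Both NoEndo libraries lay above both Endo libraries for all 12 (beside 36.8% of all 261), with a median of -3.31. The calls of this list were lost without Endo replicate 1 or without Endo replicate 2, and fewer held without NoEndo replicate 1. The median was -2.29 without NoEndo replicate 1 and -3.90 without NoEndo replicate 2. The list gave 4 calls with limma-voom, where 29 of all 261 passed, and 3 without miR-92a-3p, where 20 of 266 passed. It gave 11 with the DESeq2 Wald test and 11 with the replicate block, where 65 and 140 of all 261 passed. The calls fell in the miR-200 family, which keeps cells epithelial by repressing the ZEB factors, and in miR-203b-5p. miR-200b-3p, its most abundant member, stood at 961 and 417 CPM in Endo and 9040 and 3883 CPM in NoEndo (-3.23, SE 0.66, adjusted p = 0.0402, edgeR). miR-429a stood at 80.8 and 102 CPM against 1190 and 693 CPM (-3.36, SE 0.52, adjusted p = 0.0257), and miR-429b at 43.6 and 21.9 CPM against 589 and 339 CPM (-3.82, SE 0.66). miR-200c-3p (-3.23), miR-141-3p (-3.29) and miR-200a-3p (-2.88) differed by similar amounts.

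The skin and epithelial microRNAs with the most counts did not pass the test, and their NoEndo replicates differed most. miR-205-5p stood at 12604 and 5946 CPM in Endo and at 147449 and 37728 CPM in NoEndo (-3.32, SE 0.86, adjusted p = 0.0621, edgeR). miR-203b-3p stood at 5032 and 2184 CPM against 73656 and 9350 CPM (-3.52, SE 1.11, adjusted p = 0.0922), and miR-203a-3p at 1257 and 587 CPM against 22943 and 1919 CPM (-3.75, SE 1.23, adjusted p = 0.102). In all 3 both NoEndo libraries lay above both Endo libraries, by 2.99-fold, 1.86-fold and 1.53-fold at the narrowest. The minor arm miR-203b-5p stood at 43.6 and 32.2 CPM against 1042 and 233 CPM and passed (-4.07, SE 0.90, adjusted p = 0.0481). Together the miR-203 and miR-205 members held 24.2% of counts in NoEndo replicate 1 and 6.52% in NoEndo replicate 2, against 1.38% and 0.917% in Endo, and the miR-200 family held 1.301% and 0.78% against 0.0969% and 0.0715%.

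Some neural microRNAs were called lower in Endo. Of 28 tested members, 4 were called lower (14.3%, beside 8.05% of all 261) and 0 higher. With the replicate block 23 were called lower and with the DESeq2 Wald test 12, where 140 and 65 of all 261 passed. With a 100 CPM filter 9 of 18 were called lower, where 53 of 182 passed. Of the 28, 14 were separated and lower (beside 20.7% of all 261), and 5 overlapped (beside 103 of 261). The median was -2.02. All 28 differences were negative, whereas 2 of 27 were positive in the fit of 10 libraries and 1 was positive without Endo replicate 1 and without NoEndo replicate 2. The calls were miR-124-5p and 3 forms of the miR-9 minor arm. miR-9-3p stood at 1143 and 1956 CPM in Endo and 6621 and 10542 CPM in NoEndo (-2.47, SE 0.47, adjusted p = 0.0369, edgeR), and miR-9-4-3p and miR-9-7-3p differed by -1.81 (SE 0.33) and -1.99 (SE 0.36). The abundant arm miR-9-5p stood at 3574 and 7073 CPM against 20228 and 29826 CPM and narrowly missed the threshold (-2.23, SE 0.53, adjusted p = 0.0566). miR-124-5p, of neurons, had 16 and 16 counts in Endo and 96 and 483 in NoEndo (-2.90, SE 0.54, adjusted p = 0.035). Not every neural microRNA differed to that extent: miR-128-3p stood at 7796 and 6800 CPM against 8469 and 8998 CPM (-0.26, adjusted p = 0.647). With total counts 1 of the 4 passed, where 26 of all 261 passed. The calls of the list were lost without Endo replicate 1 or 2. Its median was -2.06 without NoEndo replicate 1 and -1.03 without NoEndo replicate 2.

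Lens, sensory and ciliated cell microRNAs followed the same direction. miR-184, of the lens and cornea in mouse, stood at 797 and 716 CPM in Endo and 8226 and 5072 CPM in NoEndo (-3.14, SE 0.42, adjusted p = 0.0166, edgeR). miR-204-5p, of lens and retinal pigment epithelium, was far more abundant and overlapped between populations on this scale, at 31030 and 12704 CPM against 41200.3 and 29762 CPM, while its rare arm miR-204-3p was called lower with 1 and 1 counts in Endo and 7 and 41 in NoEndo. The sensory miR-183 cluster, of hair cells and photoreceptors, was lower in all 4 tested forms (median -2.59), with 1 call, beside 8.05% of all 261. The called miR-183-5p had 1 and 2 counts in Endo and 13 and 55 in NoEndo. miR-34b and miR-34c, which multiciliated cells need in frogs, included the most negative difference of the comparison. miR-34b had 1 and 0 counts in Endo and 12 and 139 in NoEndo (fitted difference -5.48, SE 1.13, adjusted p = 0.0402), and miR-34c-5p stood at 19.2 and 25.7 CPM against 384 and 161 CPM (-3.59, SE 0.70, adjusted p = 0.0369). None of these 5 calls passed without either Endo library. Without NoEndo replicate 1, miR-184 passed (0.0145) and miR-34c-5p did not (0.0699), and without NoEndo replicate 2 both passed; the 3 others were not tested in either fit. The calls of miR-183-5p and miR-204-3p were also lost with DESeq2 size factors (0.0621 and 0.0701), total counts (0.0515 each), no filter (0.0957 and 0.129) and the DESeq2 Wald test (0.173 and 0.303), and that of miR-34b with total counts (0.0515) and no filter (0.0548).

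At such low counts the fitted difference depends on the prior count. As a ratio of summed counts over depth, NoEndo over Endo was 63.7 for miR-34b (exact 95% interval 11.3 to 2532), 9.56 for miR-183-5p (3.14 to 47.5) and 10.1 for miR-204-3p (2.65 to 86.0), where the interval covers counting error only. All 3 were separated, by 8.60-fold, 5.33-fold and 5.19-fold in the same order.

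Digestive organ microRNAs were scarce in Endo. miR-122, of the liver, stood at 66.7 and 54.0 CPM in Endo and 526 and 324 CPM in NoEndo (-2.81, SE 0.54, adjusted p = 0.0369, edgeR). All 4 tested members of the gut and liver list were separated and lower, beside 20.7% of all 261. Their median was -2.39, and miR-192 among them stood at 159 and 138 CPM against 722 and 426 CPM. miR-375, which pancreatic islets of zebrafish need, stood at 253 and 186 CPM against 1663 and 1218 CPM (-2.71, SE 0.42, adjusted p = 0.0257). Neither call passed without either Endo library, and that of miR-122 also failed without NoEndo replicate 1 (adjusted p = 0.0904). The exocrine pancreas microRNAs miR-216a, miR-216b and miR-217 were not called, and their levels moved with the replicate number. Of these 3, 1 was separated and lower in Endo, beside 20.7% of all 261. miR-216b stood at 66.7 and 736 CPM in Endo and at 214 and 2228 CPM in NoEndo, so the populations overlapped.

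The 3 remaining calls lower in Endo belong to no list. miR-725-3p stood at 55.2 and 70.7 CPM in Endo and 1163 and 468 CPM in NoEndo (-3.69, SE 0.66, adjusted p = 0.035, edgeR). miR-148 stood at 216 and 417 CPM against 1381 and 1885 CPM (-2.37, SE 0.48, adjusted p = 0.0402). miR-2188-5p stood at 683 and 621 CPM against 1739 and 2025 CPM, the smallest difference among the calls (-1.53, SE 0.33, adjusted p = 0.0441). Both NoEndo libraries lay above both Endo libraries in all 3. None passed without either Endo library, and miR-2188-5p also failed without NoEndo replicate 1 (0.112) and without NoEndo replicate 2 (0.10). It was also lost with DESeq2 size factors (0.0744), total counts (0.0582), no filter (0.0616), limma-voom (0.0529) and the DESeq2 Wald test (0.0569), and miR-148 with total counts (0.0747).

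Muscle and mesenchyme microRNAs gave no call in either direction in the main test. Of 10 tested members of the striated muscle list, 2 were separated and lower in Endo, beside 20.7% of all 261. These were miR-1, at 182 and 292 CPM against 613 and 594 CPM (-1.35, adjusted p = 0.114, edgeR), and miR-499-5p, at 241 and 313 CPM against 1109 and 668 CPM (-1.68, adjusted p = 0.0751). The abundant miR-133b-3p overlapped, at 5018 and 5185 CPM against 6576 and 3714 CPM. The median of this list was -0.42, and 0.11 without NoEndo replicate 1. The mesenchyme list had a median of -1.14, with 8 negative differences among 9. In 5 both NoEndo libraries lay above both Endo libraries (beside 36.8% of all 261), and 2 were separated (beside 20.7%). With the replicate block 6 mesenchyme and 3 muscle members were called lower, where 140 of all 261 passed. The DESeq2 Wald test called 3 mesenchyme members lower (65 of 261 passed), and a 100 CPM filter 2 of 8 (53 of 182 passed). In the mesenchyme list of 9, both arms of miR-140, of cartilage, were separated: miR-140-3p stood at 579 and 440 CPM against 2407 and 1185 CPM (-1.82, SE 0.48, adjusted p = 0.0628) and miR-140-5p at 43.6 and 103 CPM against 318 and 382 CPM. miR-145-5p, of smooth muscle, which surrounds vessels, stood at 1196 and 970 CPM against 1660 and 1557 CPM, and miR-143 at 146 and 216 CPM against 388 and 675 CPM, and neither was called.

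**Figure D4:**
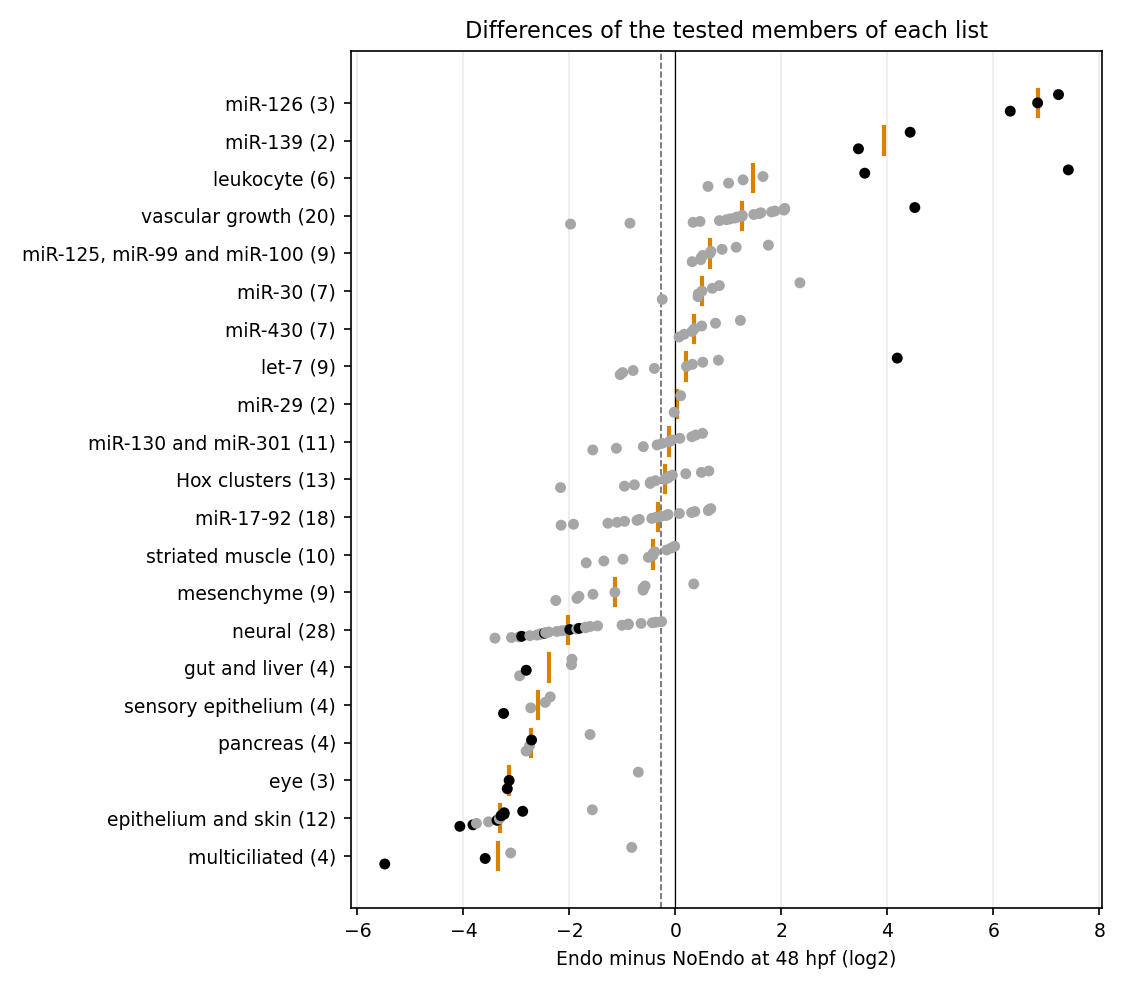
Difference between Endo and NoEndo (log2) of each tested microRNA in 21 lists with at least 2 tested members (number tested in brackets), with called microRNAs in black, others in grey, the list median as an orange bar and the median of all 261 (-0.27) as a dashed line. Medians run from 6.84 for miR-126 to -3.35 for the multiciliated list, and those of miR-430, let-7 and miR-29 turn negative with total counts while those of the Hox and miR-130 lists turn positive with DESeq2 size factors.

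Several large families took like shares of both populations. The miR-430 list of 8 held 3.23%, 3.74%, 3.58% and 3.46% of counts. Its 7 tested members had a median of 0.36 that became -0.02 with total counts, and 0 calls. The miR-17-92 list of 24 held 16.2%, 17.6%, 13.4% and 22.7%. Its 18 tested members gave 0 calls, and 13 overlapped between populations, beside 103 of all 261. miR-92b-3p in that family stood at 12653 and 6729 CPM in Endo and 18424 and 19208 CPM in NoEndo (-0.96, adjusted p = 0.206, edgeR). The miR-125, miR-99 and miR-100 list of 11 held 13.9%, 12.2%, 10.4% and 11.4%, somewhat more in both Endo libraries than in either NoEndo library. All 9 tested members had positive differences, with a median of 0.65 (0.13 with total counts) and 0 calls. In 6 of the 9 both Endo libraries lay above both NoEndo libraries, beside 23.8% of all 261. miR-10 and miR-196, which lie in the Hox clusters, gave 0 calls among 13, with a median of -0.20 that turned to 0.05 with DESeq2 size factors. The miR-29, miR-30 and miR-130 lists also gave 0 calls among 2, 7 and 11, where 11.9% of all 261 were called. In 4 of the 7 miR-30 members both Endo libraries lay above both NoEndo libraries, beside 23.8% of all 261. With the replicate block 3 miR-30 members were called higher and 2 miR-130 members lower. In that fit miR-17-92 gave 1 higher and 6 lower, and the miR-125, miR-99 and miR-100 list 3 higher. The miR-430 list gave 2 higher and the Hox list 1 lower, where 140 of all 261 passed. A p that misses the threshold does not show that these levels were the same.

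Replicates of 1 population differed by more than 2-fold for many microRNAs. Of the 261, 48 were higher in Endo replicate 2 and 33 in Endo replicate 1, and 51 were higher in NoEndo replicate 2 and 24 in NoEndo replicate 1. Among microRNAs averaging 1000 CPM or more, those most in excess in NoEndo replicate 1 were skin microRNAs, 11.9-fold for miR-203a-3p, 7.88-fold for miR-203b-3p and 3.91-fold for miR-205-5p. In the other direction, NoEndo replicate 2 was higher by 10.4-fold for miR-216b, of the pancreas, and also for miR-199-5p, of mesenchyme, with 4976 and 15843 CPM, and for miR-153b-3p, of neurons, with 499 and 1535 CPM. Among the 12 tested epithelial and skin members, 8 were more than 2-fold higher in NoEndo replicate 1, and 12 of the 28 neural members in NoEndo replicate 2.

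The Endo replicates differed along some of the same lines. miR-9-5p and miR-138-5p, of neural cells, were higher in Endo replicate 2, at 7073 against 3574 CPM and 1856 against 772 CPM, as was the joint miR-126 5p entry. miR-30c-5p was higher in replicate 1 of both populations, at 57009.8 and 17908 CPM in Endo and 38514 and 14372 CPM in NoEndo, so its difference of 0.50 (adjusted p = 0.687, edgeR) changed sign without Endo replicate 1 or without NoEndo replicate 2. miR-206-3p, of muscle, was also higher in replicate 1 of both, at 5797 and 2293 CPM and 6433 and 2627 CPM.

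MicroRNAs encoded within 10 kb of each other on 1 strand were compared by the sign of their differences. In Zv9, 42 such loci with at least 2 hairpin names were counted, where loci of 75 bases or fewer were taken as the arms of 1 hairpin and left out. Loci with the same tested members were counted once, and names with a number and no letter were merged, so the count is incomplete. It leaves out miR-143 with miR-145 (3 tested arms, all lower in Endo) and miR-182 with miR-183 and miR-96 (4 tested arms, all lower). It also leaves out miR-462 with miR-731 (2 tested arms, both higher) and miR-199 with miR-214 on chromosome 20 (1 positive, 2 negative). In 26 of the 42 all members had 1 sign, 14 higher and 12 lower in Endo, and 16 were mixed. These counts hold for TMM scaling, since differences near 0 can turn with the scaling. The 7 tested miR-430 members, all higher here, had 3 positive and 4 negative differences with total counts. On chromosome 23, at 24358924-24361034, the 4 tested arms of miR-200a, miR-200b and miR-429a ran from -3.36 to -1.57, and on chromosome 6, at 40584015-40587138, miR-141-3p, miR-200c-3p and miR-429b ran from -3.82 to -3.23. miR-34b and miR-34c on chromosome 5, at 59271407-59271703, were lower in all 3 tested arms. On the other side, the 4 arms of miR-221 and miR-222a on chromosome 9, at 34892152-34892739, ran from 1.26 to 1.88. Mature sequences with several genomic copies are counted once and enter each of their loci, so loci of 1 family are not independent. The loci of let-7a and let-7e on chromosome 23, at 5478545-5478777, and on chromosome 6, at 54461695-54462334, had the widest span, from 0.32 to 4.19.

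Mixed loci held members of both signs. The miR-17-92 locus on chromosome 1, at 2806111-2806943, ran from -2.16 for the rare miR-20a-3p to 0.62 for miR-92a-3p, and its second copy on chromosome 9 from -1.27 to 0.62. On chromosome 22, at 4997647-5011940, miR-23a-3p (1.58) and miR-24 (1.26) were positive and miR-27e (-1.98) negative. None of the members of these 3 loci was called.

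No hairpin changed its dominant arm between populations. Arms were paired by name, and 40 hairpins had at least 10 counts of each arm in every library. The dominant arm differed between the population means in 0 of these 40. The median shift of the log2 ratio of 3p over 5p counts was 0.474 in size. In 12 of the 40 the ratios of the 2 populations did not overlap, 4 with relatively more 3p in Endo and 8 with more 5p. With 2 libraries against 2, random labels give no overlap with a probability of 0.333 per hairpin. The 12 are therefore given as values and not as a difference of the populations. With at least 20 counts of each arm 7 remained. A gap of more than 1 occurred in 2: miR-30c, with ratios of -5.08 and -4.997 in Endo and -6.97 and -6.75 in NoEndo, and miR-200b, with 5.23 and 4.75 against 6.83 and 6.46. The miR-30c ratio rests on 1310 and 436 counts of the 3p arm in Endo and 198 and 408 in NoEndo. The miR-200b ratio rests on 20 and 12 counts of its 5p arm in Endo. miR-199 (-1.64 and -1.35 against -2.31 and -2.14), miR-193b (3.302 and 3.37 against 3.89 and 3.86) and miR-26a (-9.00 and -8.34 against -9.27 and -10.5) followed by size of the gap. For some names the 2 arms have unlike numbers of genomic copies. miR-199-5p has 4 against 3 for miR-199-3p, miR-26a-5p has 3 against 1 for miR-26a-3p, and miR-23a-3p has 4 against 2 for miR-23a-5p. Such a ratio is not that of 1 hairpin.

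**Figure D5:**
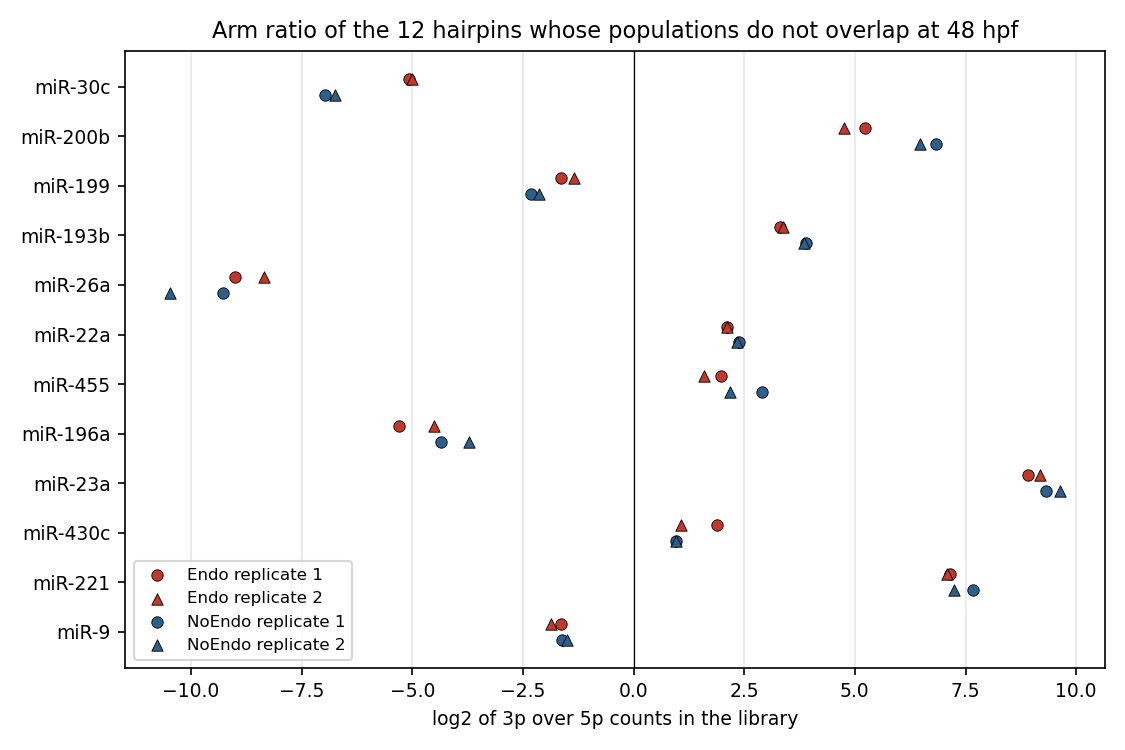
Log2 ratio of 3p over 5p counts in each 48 hpf library for the 12 of 40 hairpins whose Endo and NoEndo libraries did not overlap. Arms were paired by name, and hairpins are in order of the gap between populations. The ratio of miR-30c was -5.08 and -4.997 in Endo and -6.97 and -6.75 in NoEndo, and the sign of the ratio was the same in all 4 libraries for each hairpin.

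The differences at 48 hpf were set beside those at 24 hpf, 72 hpf and 6 dpf (days post fertilization), where 1 usable library of each population was at hand. Of the 31 called, 29 had the same sign at 24 hpf (93.5%), all but miR-122 and miR-9-7-3p, and all 31 had it at 72 hpf and at 6 dpf. Of the 73 separated the counts were 63 (86.3%), 72 (98.6%) and 68 (93.2%). They were 172 (67.5%), 211 (82.7%) and 188 (73.7%) of 255 microRNAs tested at 48 hpf. These 255 had 10 CPM or more in at least 3 of the 10 usable libraries, which levels at 48 hpf alone can fulfil. miR-23b and miR-24, separated at 48 hpf, had the opposite sign at 24 hpf. So did all 4 members of the gut and liver list, miR-122, miR-192, miR-194a and miR-194b. The other separated microRNAs that turned at 24 hpf were miR-23a-3-5p, miR-27e, miR-124-6-5p and miR-9-7-3p. No difference was shown to be particular to 48 hpf. In the contrast of 48 hpf with the mean of the other stages, 0 of 265 (0%) passed with edgeR, 7 had an unadjusted p under 0.05, and limma-voom gave 0 and 5. On data simulated from the 10 libraries, this contrast recovered 0, 7 and 15 of 20 changes of 1, 2 and 4 (log2). It can therefore miss large differences. Among the smallest p were those of let-7e and miR-223, with an adjusted p of 0.898 each. On log2 levels scaled over the 10 usable libraries, let-7e differed by 4.54 at 48 hpf, beside 1.31 (24 hpf), 3.72 (72 hpf) and 2.84 (6 dpf). The miR-223 difference was 3.92 at 48 hpf, beside 2.67, 3.64 and 0.85.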

How the data were processed

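Groups, stages and replicate numbers came from the sample titles, whose E1 and E2 marks differ from those of some deposited file names. Libraries were Illumina TruSeq, per the labels' protocols. Per the submitters' processing notes, Zv9 is a build and STAR 2.3.0 a tool of the processing, with no role stated. Trimming, annotation and the counting program: not given in the sources used here. The deposited read counts are whole reads at each genomic copy of a mature microRNA, where a read is counted at every copy it maps to. The deposited expected counts, adjusted for multiple mapping per the file headers, share each such read among its places. The deposited signal columns give RPM, per the file headers, and served only to recover the 2 library totals. Reads antisense to microRNAs came to at most 12 adjusted counts per library.

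Expected counts were summed by name, rounded and tested where at least 10 CPM was reached in at least 2 of the 4 libraries, 261 of 326 microRNAs. The test was edgeR 4.0.16's robust quasi-likelihood F test (R 4.3.3) with TMM factors of 0.730, 1.05, 0.989 and 1.32 for Endo replicates 1 and 2 and NoEndo replicates 1 and 2, with Benjamini-Hochberg adjustment at 0.05. SEs were obtained by dividing log2 differences by the root of F, and the biological coefficient of variation was 0.477. Other stages entered only the contrast of 10 libraries, without both replicate 1 libraries of 72 hpf, since the Endo and NoEndo files hold identical values there. On data simulated from these libraries, 1, 7 and 20 of 20 changes of 1, 2 and 4 (log2) were recovered by the 48 hpf test on 261 microRNAs, with 1 call among 196 unchanged.

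The groups, the 22 lists and the rules were chosen with earlier results of these data known. Names were drawn from the 12 largest calls in each direction at a mean of at least 100 CPM without overlap (filled with separated microRNAs), the 10 most abundant, the 5 largest replicate ratios each way, the 5 smallest p each way of the stage contrast, the 5 largest separated arm shifts and list members. Calls outside these rules were named after their values were seen. Mature sequences are not printed, since none was in the tables used. Near-identical members of miR-133a, miR-27, miR-23, miR-430, miR-125 and let-7 cannot be told apart with certainty. Alternatives were DESeq2 1.42.0 size factors and Wald test, limma 3.58.1 voom, total counts, other filters, no robust option, a replicate term, each library left out, read counts at every copy and removal of miR-92a-3p.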

Additional observations from a re-analysis of the deposited data

How the results depend on the processing

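Each of the 31 calls kept its sign in every alternative that tested it. All 31 were separated, so other scaling or a library left out could hardly turn a sign. The calls not tested numbered 3 with the 100 CPM filter, without NoEndo replicate 1 or without NoEndo replicate 2. With read counts at every copy 2 were not tested. The number of calls in all was 30 with DESeq2 size factors (28 of them among the 31), 26 with total counts (22), 27 with no filter (27), 29 with limma-voom (26), 34 without the robust option (31), 28 in the fit of 10 libraries (25) and 29 with read counts at every copy (27). It was 53 with a 100 CPM filter (28), 65 with the DESeq2 Wald test (28) and 20 without miR-92a-3p (20), and leaving out 1 library gave 0 to 39 calls. The replicates share only a number across populations. With it as a replicate block 140 passed (31), and deviations of same-numbered libraries from their population means correlated at 0.70 over 261 microRNAs. The count of separated microRNAs was 62 higher and 96 lower with no minimum gap, 10 and 17 with a 4-fold gap, and, with each library left out (chosen after seeing the data), 25 to 36 higher and 63 to 83 lower. Arm ratios without overlap numbered 7 with at least 20 counts per arm.

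Signs turned for list medians and for microRNAs that were not called. Among microRNAs followed singly and medians, those with total counts were miR-430b-3p (-0.0561) and the medians of let-7 (-0.17), miR-29 (-0.33) and miR-430 (-0.0200). With DESeq2 size factors they were miR-206-3p (0.0513, and 0.0512 in the Wald test and 0.0919 with 10 libraries) and the medians of the Hox (0.0512) and miR-130 (0.12) lists. Other list members turned as well: positive differences went from 7 to 3 of 7 in miR-430 and from 5 to 3 of 9 in let-7 with total counts, and from 0 to 3 of 10 in striated muscle and from 6 to 9 of 18 in miR-17-92 with DESeq2 size factors. The medians of miR-17-92 (0.19), Hox (0.14) and miR-130 (0.22) were positive with 10 libraries, those of Hox (0.0512) and miR-130 (0.12) in the Wald test, and that of let-7 was -0.35 with no filter. Over the 4 fits that each left out 1 library, the sign turned for miR-30c-5p (-0.51 to 1.499), miR-30b (-0.28 to 1.198), miR-206-3p (-0.93 to 0.74), miR-20a-5p (-1.496 to 0.12), miR-216b (-4.22 to 0.90), miR-199-3p (-1.64 to 0.0359) and miR-101b (-2.81 to 0.41). It also turned for the medians of let-7 (-0.0172 to 0.58), striated muscle (-0.78 to 0.11), Hox (-0.24 to 0.0376), miR-17-92 (-0.59 to 0.26) and miR-29 (-0.54 to 0.72). The cause was not tested. The stage contrast gave 0 calls in all 9 fits run. With 743938 or fewer reads in the shallowest Endo and NoEndo libraries, microRNAs of a few CPM rest on single counts.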
